A study of Mus musculus with 8 samples.

Results

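The 10 genes described here, of 19505 measured, are Atp8b4, Cd36, Serpina3f, Spint1, Enah, Bicdl1, Arfgef3, Bcat1, Aldh1a1 and Arrdc4. They were chosen because their values differed widely between arrays numbered 1 and 2 and arrays numbered 3 and 4, in cells given the drug and in cells given its vehicle alike. The arrays hold RNA of hematopoietic stem cells from the bone marrow of mice aged 6 to 10 weeks, taken by flow sorting (lineage-negative, c-Kit and Sca-1 positive, CD150 positive, CD48 negative). After sorting, all cells were kept in medium with stem cell factor at 100 ng/ml. The 4 eltrombopag cultures (EP in the titles) received the drug at 10 µg/ml for 16 h, and the 4 vehicle cultures (NT in the titles) received sterile water for the same 16 h. Strain, sex and genotype of the mice are not given in the labels, which name the arrays biological replicates without saying which animals each one came from. About 10 ng of RNA per sample was amplified from the 3' end before hybridisation. Values are log2 units per probe set, so a difference of 1 is a 2-fold difference, and each of the 10 genes had 1 probe set.

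Hematopoietic stem cells renew themselves and give rise to all blood lineages, and in culture they respond quickly to growth factors and nutrients. The genes have no single pathway in common. Atp8b4 encodes a P4-ATPase, a family of pumps that move phospholipids between the leaflets of membranes, and Cd36 encodes a scavenger receptor that takes up long-chain fatty acids and oxidised lipoproteins. Serpina3f belongs to a cluster of mouse serine protease inhibitors, and Spint1 encodes a Kunitz-type inhibitor of the proteases that activate hepatocyte growth factor. Enah (Mena) lengthens actin filaments, Bicdl1 links vesicles to the dynein motor, and Arfgef3 is a relative of the large exchange factors of ARF GTPases. Bcat1 transaminates branched-chain amino acids in the cytosol, Aldh1a1 oxidises retinal to retinoic acid, and Arrdc4 is an alpha-arrestin that lowers glucose uptake.

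The split into numbers 1 and 2 against numbers 3 and 4 was itself read from these arrays. On the first principal component, with 25.5% of the variance, arrays 1 and 2 of both groups scored from -18.8 to -11 and arrays 3 and 4 from 14 to 15.6. The values behind the choice are therefore given as a description, with no test. All pairs of arrays correlated between 0.987 and 0.993 across probe sets. The lower quartile of an array lay between 4.90 and 5.02, and its median between 6.66 and 6.70. Of the sorting markers, Kit read 12.82 to 12.94 and Slamf1 (CD150) 6.19 to 7.75, both above the lower quartile on every array. Cd48, which the sort selects against, read 5.66 to 6.55, also above it. Among 78 markers of stem cells and of other blood and stromal cells, 69 were measured, and 1 differed by over 2-fold between the number sets in both groups. It was S100a8 of neutrophils and monocytes, at 4.58, 4.35, 6.21 and 5.69 on vehicle arrays 1 to 4 and 5.03, 4.04, 6.63 and 5.0 on eltrombopag arrays 1 to 4. The mean of the 10 neutrophil and monocyte markers ran from 6.26 to 6.63 on arrays 1 and 2 and from 6.57 to 6.83 on arrays 3 and 4. That of the 7 erythroid markers ran from 6.93 to 7.07 and from 6.95 to 7.43, and that of the 7 megakaryocyte markers from 7.49 to 7.74 and from 7.71 to 7.97. Those of the 10 stem cell markers ran from 8.52 to 8.85 and from 8.80 to 8.86. Of the 69 markers 7 lay entirely higher on arrays 3 and 4 (3.47% of all genes) and 0 entirely lower (3.77% of all genes). They were Hlf and Meis1 of the 10 stem cell markers, Cd34 of multipotent progenitors, Itga2b and Itgb3 of megakaryocytes, Lyz2 of neutrophils and monocytes, and Gata2 of mast cells, basophils and eosinophils. The means of the other lists, on arrays 1 and 2 and on arrays 3 and 4, ran from 7.16 to 7.42 and 7.11 to 7.16 for multipotent progenitors, from 5.85 to 5.95 and 5.79 to 6.06 for B cells, and from 5.40 to 5.49 and 5.28 to 5.49 for T and NK cells. They ran from 5.59 to 5.70 and 5.65 to 5.78 for mast cells, basophils and eosinophils, and from 6.21 to 6.36 and 6.08 to 6.29 for stromal and endothelial cells. What part these markers have in the values below was not tested. In sorted bulk cells, fewer cells of a type and less RNA per cell cannot be told apart.

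**Figure D1:**
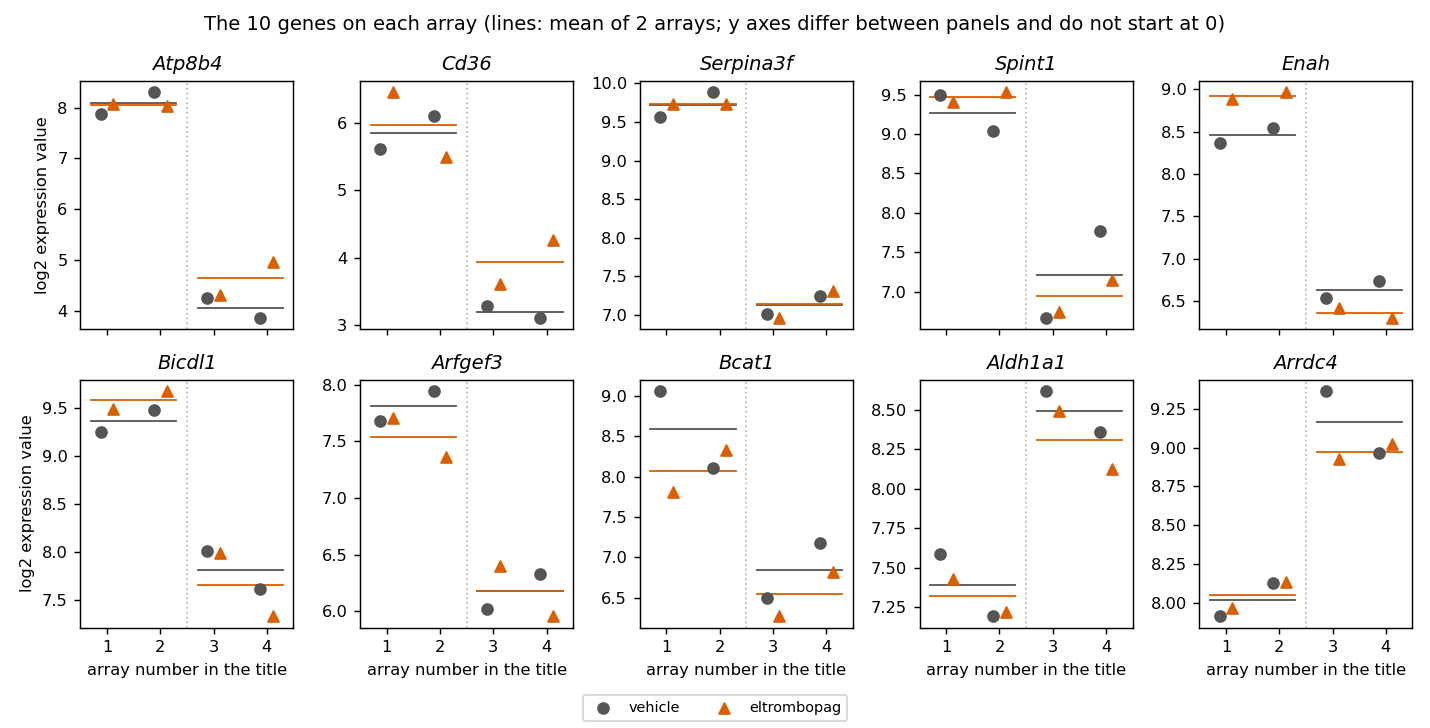
Log2 expression value (y axis, its own range in each panel, not from 0) of the 10 genes against the array number in the title (x axis). Circles are vehicle arrays, triangles are eltrombopag arrays and each line is the mean of 2 arrays. In each of the 10 panels the 4 arrays numbered 1 and 2 do not overlap the 4 numbered 3 and 4, with 8 genes lower and 2 higher on numbers 3 and 4.

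In 8 of the 10 genes the values were lower on arrays 3 and 4, by 2.83-fold to 13.3-fold, and in 2 they were higher, by 2.05-fold and 2.06-fold. These folds come from the mean of the vehicle and the eltrombopag shift. In none of the 10 did the 4 arrays of one set reach into the range of the other 4. Over all genes the 2 sets lay apart in this way for 3.77% on the lower side and 3.47% on the higher side. As the genes were chosen by this contrast, nothing is read from their count.

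Among the membrane genes, Atp8b4 held the largest shift of all 19505 genes, whether ordered by the smaller of its 2 shifts or by their mean. It read 7.89, 8.30, 4.25 and 3.85 on vehicle arrays 1 to 4, and 8.08, 8.04, 4.31 and 4.96 on eltrombopag arrays 1 to 4. Numbers 1 and 2 were high under both treatments, and of the other 4 arrays 3 lay below the lower quartile of an array and eltrombopag array 4 lay close to it. The shift, as numbers 3 and 4 minus numbers 1 and 2, was -4.04 with vehicle and -3.42 with eltrombopag. How closely values this dim follow the transcript is not known here.

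Cd36 read 5.61, 6.10, 3.29 and 3.11 on vehicle arrays 1 to 4 and 6.46, 5.50, 3.61 and 4.26 on eltrombopag arrays 1 to 4. Its 4 lower values, all on numbers 3 and 4, also lay below the lower quartile of an array. The shift was -2.66 with vehicle and -2.04 with eltrombopag. Cd36 is found on monocytes, platelets and erythroid precursors as well, whose markers are given above.

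Both protease inhibitors were lower on numbers 3 and 4. Serpina3f read 9.56, 9.89, 7.01 and 7.24 on vehicle arrays 1 to 4 and 9.74, 9.73, 6.96 and 7.31 on eltrombopag arrays 1 to 4. Its arrays fell into 2 tight levels, with shifts of -2.60 under vehicle and -2.60 under eltrombopag and at most 0.35 between 2 arrays of one set and treatment. Mouse Serpina3 genes are close copies of each other, so the probe set may also take up RNA of a copy. Spint1 read 9.50, 9.04, 6.67 and 7.77 on vehicle arrays 1 to 4 and 9.41, 9.53, 6.75 and 7.15 on eltrombopag arrays 1 to 4. Its shifts were -2.05 and -2.52, and vehicle arrays 3 and 4 stood 1.10 apart, the widest such gap in the 10 genes.

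The genes of the cytoskeleton and of vesicle traffic followed the same order. Enah read 8.37, 8.54, 6.53 and 6.74 on vehicle arrays 1 to 4 and 8.88, 8.97, 6.42 and 6.30 on eltrombopag arrays 1 to 4. Arrays of one set and treatment lay within 0.21 of each other, against shifts of -1.82 and -2.56. Bicdl1 read 9.25, 9.48, 8.01 and 7.62 with vehicle and 9.49, 9.68, 7.99 and 7.33 with eltrombopag, with shifts of -1.55 and -1.93. Arfgef3 read 7.68, 7.95, 6.02 and 6.33 with vehicle and 7.71, 7.36, 6.40 and 5.95 with eltrombopag, with shifts of -1.64 and -1.36. Within numbers 3 and 4 the lower array was number 4 for Bicdl1 under both treatments, whereas for Arfgef3 it was number 3 with vehicle and number 4 with eltrombopag.

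The metabolic genes went both ways. Bcat1 was lower on numbers 3 and 4, at 9.06, 8.11, 6.50 and 7.19 on vehicle arrays 1 to 4 and 7.82, 8.34, 6.27 and 6.82 on eltrombopag arrays 1 to 4. Vehicle arrays 1 and 2 stood 0.95 apart, and the shifts were -1.75 and -1.53. Aldh1a1 was higher on numbers 3 and 4. It read 7.59, 7.19, 8.62 and 8.36 with vehicle and 7.43, 7.22, 8.49 and 8.12 with eltrombopag, with shifts of 1.10 and 0.98. Arrdc4, whose transcription follows sugar supply through the factors MondoA and Mlx, read 7.91, 8.13, 9.37 and 8.97 with vehicle and 7.97, 8.13, 8.93 and 9.02 with eltrombopag. Its shifts were 1.15 and 0.93, and the lowest of its values on numbers 3 and 4 stood 0.80 above the highest on numbers 1 and 2.

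Upstream sequences are shown for 3 genes, namely Atp8b4, which had the largest shift, Serpina3f and Arrdc4. Of the genes with sequence, only Serpina3f held the motif TTCNNNGAA and only Arrdc4 held CACGTG. As these 2 are the ones that matched, nothing is read from their matches. Each is the 250 bases before the transcription start in RefSeq's annotation of GRCm38.p6, 5′ to 3′ on the gene's strand, with capitals at the searched motifs. The motifs were CACGTG (the E-box that MondoA and Mlx can bind), TTCNNNGAA (STAT factors), TGANTCA (AP-1), AGATAA (bound by the GATA factors), CCAAT (NF-Y) and GGGCGG (Sp1), read on both strands. A match describes letters only and is not evidence of binding.
Atp8b4, chr2:126491554-126491803, minus strand: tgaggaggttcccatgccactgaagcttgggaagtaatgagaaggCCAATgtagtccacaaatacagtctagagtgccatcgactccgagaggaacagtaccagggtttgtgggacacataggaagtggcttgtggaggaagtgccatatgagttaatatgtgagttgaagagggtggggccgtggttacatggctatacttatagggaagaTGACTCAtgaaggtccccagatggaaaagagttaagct
Serpina3f, chr12:104214294-104214543, plus strand: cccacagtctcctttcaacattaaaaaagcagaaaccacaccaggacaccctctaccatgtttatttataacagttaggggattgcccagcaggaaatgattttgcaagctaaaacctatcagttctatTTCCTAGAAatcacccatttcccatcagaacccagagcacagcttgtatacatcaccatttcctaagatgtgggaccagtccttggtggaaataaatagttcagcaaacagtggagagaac
Arrdc4, chr7:68749239-68749488, minus strand: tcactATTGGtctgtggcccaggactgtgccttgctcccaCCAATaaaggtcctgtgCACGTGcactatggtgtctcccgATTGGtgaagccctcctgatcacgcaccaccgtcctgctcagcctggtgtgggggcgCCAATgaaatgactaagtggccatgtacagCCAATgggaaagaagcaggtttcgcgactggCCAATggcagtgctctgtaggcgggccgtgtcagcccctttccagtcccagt
The Atp8b4 stretch holds TGACTCA 38 bases before the start and CCAAT 205 bases before it. The Serpina3f stretch holds TTCCTAGAA, counted from its first letter 121 bases before the start. In the Arrdc4 stretch CACGTG begins 193 bases before the start, among 6 matches to CCAAT or its complement. The 250 bases before Txnip, named below as another MondoA target, held 0 matches to CACGTG.

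Upstream sequence was given for 9 of the 10 genes, and none of the 6 motifs was in all 9. A gene was counted where any of its starts held the motif, and Serpina3f, Bcat1 and Aldh1a1 had 2 starts each. The share in brackets is counted in the same way over 27025 genes with upstream stretches of the same length. CCAAT was found for 6 of the 9 genes (37.5%) and GGGCGG for 4 (35.4%). TGANTCA was found for 3, namely Atp8b4, Bcat1 and Aldh1a1 (7.82%). CACGTG was found for 1, Arrdc4 (6.86%), TTCNNNGAA for 1, Serpina3f (8.13%), and AGATAA for 1, Aldh1a1 (11.4%). Aldh1a1 held CCAAT and AGATAA at its second start only. The share of G and C bases ran from 37.6% before the first Bcat1 start to 84.8% before Enah, where the median stretch had 52.4%.

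Against the whole table, the 10 genes are not the 10 largest shifts. Ordered by the smaller of the vehicle and the eltrombopag shift, where both had the same sign, Atp8b4 came 1st and Serpina3f 2nd, and 4 of the 10 stood in the first 10. Spint1 stood at 7, Cd36 at 8, Enah at 12, Bicdl1 at 18, Bcat1 at 19, Arfgef3 at 28, Aldh1a1 at 51 and Arrdc4 at 64. Past 2-fold in both treatments, 37 genes (0.19%) were lower and 13 (0.0666%) higher on numbers 3 and 4, and 8 of the 10 were among the lower ones. Aldh1a1 and Arrdc4 were past 2-fold with vehicle and just under it with eltrombopag. Of the genes outside the 10, those ranked highest on the lower side were Socs2, a feedback inhibitor of cytokine signalling (-2.78 with vehicle, -2.39 with eltrombopag), Mthfd2, an enzyme of mitochondrial folate metabolism (-2.31 and -2.77), and Slc1a4, a neutral amino acid transporter (-2.15 and -2.25). On the higher side they were Uty (2.22 and 1.91), the zinc finger gene Bnc2 (1.88 and 1.62) and Cd180, a receptor of the toll-like family (1.47 and 1.59). The sets lay apart for Cd180 but overlapped for Bnc2, at 7.17 on vehicle array 2 and 6.96 on eltrombopag array 3.

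**Figure D2:**
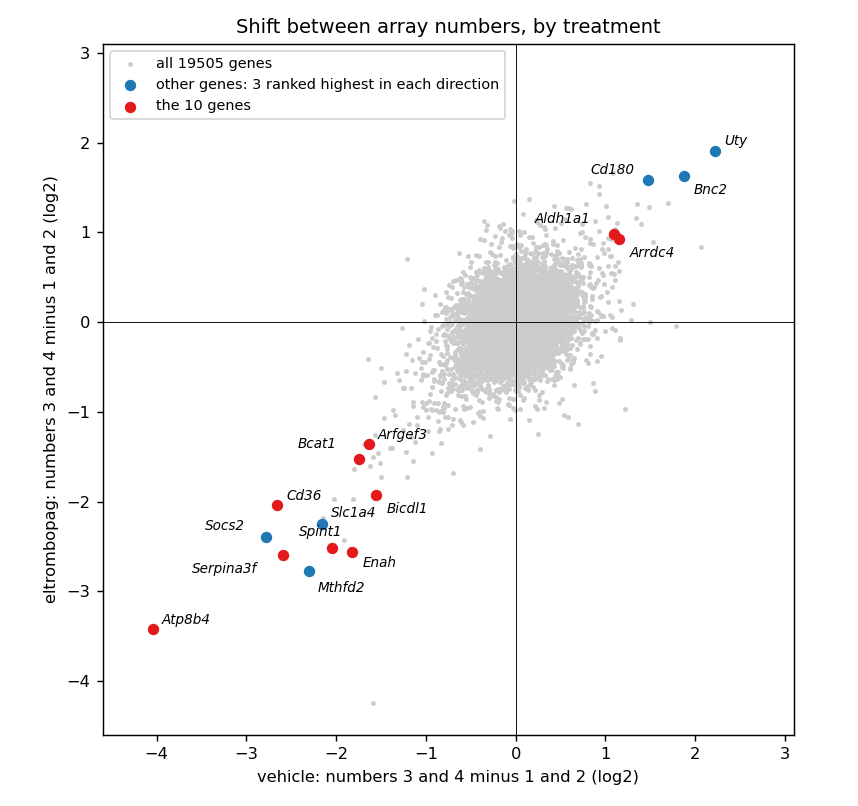
Difference between arrays 3 and 4 and arrays 1 and 2 in log2 units, with vehicle on the x axis and with eltrombopag on the y axis, 1 point per gene (grey, 19505 genes). Red points are the 10 genes and blue points the 3 other genes ranked highest in each direction, and Atp8b4 lies farthest out at -4.04 and -3.42.

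Uty is Y-linked, and its shift came from number 3 alone, with 7.71 on vehicle array 3 and 6.98 on eltrombopag array 3 against at most 3.31 on the other 6 arrays. With number 4 alone against numbers 1 and 2, the shift of the 10 genes ran from -4.24 (Atp8b4) to 0.97 (Aldh1a1) with vehicle and from -3.10 (Atp8b4) to 0.97 (Arrdc4) with eltrombopag. With number 3 alone it ran from -3.85 (Atp8b4) to 1.35 (Arrdc4) with vehicle and from -3.75 (Atp8b4) to 1.17 (Aldh1a1) with eltrombopag. As the 4 arrays numbered 3 and 4 lay apart from the other 4 in each of the 10, either number alone had to give the same direction, and nothing is read from it. The labels do not give the sex of the mice, and what part it has in the shifts of the 10 genes was not tested. The arrays of one number may share animals, and the labels give no extraction, labelling or hybridisation batch. For the 10 genes, animals and batch therefore cannot be told apart.

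Eltrombopag was not found to change any of the 10 genes. The differences between the treatments were small beside the shift between the numbers. As the genes were chosen for that shift, nothing is read from the contrast. Of these comparisons, eltrombopag against vehicle is the one the labels state, and it was not used to choose the genes. limma called 0 of the 10 and 0 of 19505 genes (0%), with 650 genes at an unadjusted p under 0.05 without the replicate number and 904 with it as a block. Without the block the limma adjusted p was 0.99978 for each of the 10. In none of the 10 did the eltrombopag and vehicle values separate (2.12% of all genes). As the sets of numbers lay apart in each of the 10, both groups held high and low arrays and had to overlap. Nothing is read from that count. In none of the 10 did all 4 pairs go one way (12.6% of all genes). The median absolute log2 difference was 0.11 for the 10 genes and 0.083 over all genes.

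Cd36 and Bcat1 had the widest differences of the 10. The vehicle mean of Cd36 was 4.52 ± 1.55 (SD, n = 4) and its eltrombopag mean 4.96 ± 1.27 (SD, n = 4), so the drug group stood 0.43 higher on the log2 scale (SE 0.76), in 3 of 4 pairs. The vehicle mean of Bcat1 was 7.72 ± 1.12 (SD, n = 4) and its eltrombopag mean 7.31 ± 0.94 (SD, n = 4), which makes -0.40 on the log2 scale (SE 0.56), lower in 3 of 4 pairs. Most of the Bcat1 difference came from number 1, at -1.25, against 0.23, -0.23 and -0.36 for numbers 2, 3 and 4. Atp8b4 differed by 0.28 (SE 1.17), with 1.11 in pair 4 and between -0.27 and 0.20 in the other pairs. The Serpina3f difference was 0.0080 (SE 0.81), with no pair beyond 0.18. The remaining 6 lay between -0.14 (Arfgef3) and 0.098 (Enah).

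The SDs of these genes hold the shift between the numbers, so the intervals of the difference were wide. The median SE was 0.63 for the 10 genes and 0.13 over all genes, and the 95% interval stayed within a 2-fold change for 2 of the 10 (Aldh1a1 and Arrdc4), against 98.7% of all genes. With the replicate number as a block the median SE was 0.16 for the 10 genes and 0.11 over all genes, and the interval stayed within a 2-fold change for 9 of the 10. It then ran from -0.22 to 0.23 for Serpina3f, from -0.24 to 0.30 for Bicdl1, from -0.34 to 0.092 for Aldh1a1 and from -0.35 to 0.19 for Arrdc4. That of Cd36 ran from -0.19 to 1.05, the one that reached past 2-fold. The block changed no call, with a smallest adjusted p in limma of 0.984 among the 10, for Bcat1.

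**Figure D3:**
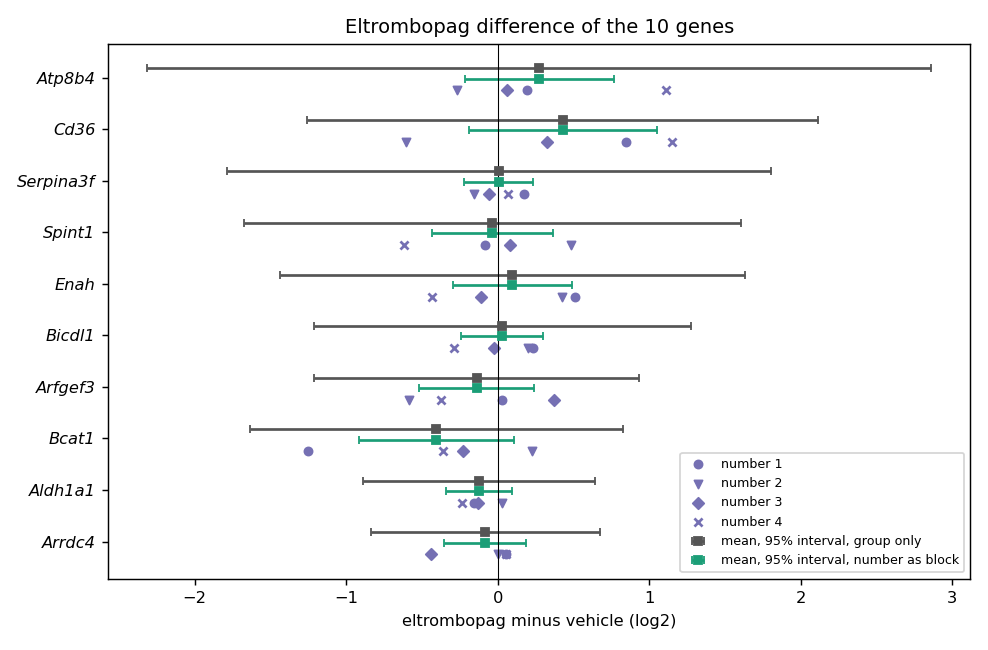
Eltrombopag minus vehicle in log2 units (x axis) for the 10 genes. Squares are means over 4 pairs with 95% limma intervals, grey with group as the only term and green with the replicate number as a block, and purple marks are the single pairs. The grey intervals of all 10 genes and the green intervals of all 10 genes cover 0.

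Within each set of numbers, the eltrombopag difference of Enah was 0.47 on numbers 1 and 2 and -0.27 on numbers 3 and 4, with both pairs of a set on the same side. For Bicdl1 it was 0.22 and -0.16, again with both pairs of a set on the same side. Such a turn between the sets was seen in 2 of the 10 genes and in 12.1% of all genes, and the difference between the sets was not tested. Cd36 differed by 0.12 on numbers 1 and 2 and 0.74 on numbers 3 and 4, where its values were below the lower quartile. For Bcat1 the values were -0.51 and -0.30, and for Serpina3f 0.0089 and 0.0070.

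Close relatives of the 10 genes did not shift with them to a like extent. Only the 10 were chosen for wide shifts, so nothing is read from that contrast. Lists of paralogues and pathway partners held 82 genes beside the 10, of which 74 were measured. Of the 74, 0 were past 2-fold in both treatments, beside 0.19% of all genes lower and 0.0666% higher. The shifts of the 74 ran from -0.80 to 0.72 in either treatment. Their median absolute mean shift was 0.13, against 0.10 over all genes and 1.97 for the 10 genes. In 6 of the 74 the 4 arrays numbered 3 and 4 lay entirely below the other 4, and in 3 entirely above, beside the 3.77% and 3.47% of all genes given earlier. limma called 0 of the 74 between eltrombopag and vehicle.

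The 15 other measured P4-ATPases and their partner subunits shifted by -0.42 to 0.63, against -4.04 and -3.42 for Atp8b4. In the Serpina3 cluster 5 other genes were measured, with shifts from -0.28 to 0.23, and Serpina3g, the neighbouring copy, was not analysed here. The actin elongators Vasp and Evl, beside Enah, stayed between -0.16 and 0.058. Spint2, the sister of Spint1, shifted by 0.072 and -0.075. Scarb1, a lipoprotein receptor of the Cd36 family, shifted by -0.29 and -0.59, and Scarb2 of the lysosome by 0.25 and 0.28. Arfgef1, Arfgef2 and Gbf1, large ARF exchange factors listed beside Arfgef3, lay between -0.21 and 0.20, and Bicd2 and Bicdl2 between -0.21 and 0.11.

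Of the 14 other genes of branched-chain amino acid use, 2 lay entirely lower on numbers 3 and 4. These were Slc7a5 (-0.76 and -0.80) and Slc3a2 (-0.53 and -0.73), the chains of the transporter that brings such amino acids into the cell. Bcat2, the mitochondrial counterpart of Bcat1, shifted by 0.47 with vehicle and 0.0082 with eltrombopag. Beside Aldh1a1, the closely similar Aldh1a7 shifted by -0.085 and 0.33, and the retinoic acid receptor gene Rara lay lower at -0.61 and -0.63. Txnip, the other well-known MondoA target, lay entirely higher on numbers 3 and 4 but by only 0.15 and 0.085. Klf10, also listed for that system, was higher by 0.72 and 0.66. The other 4 relatives whose sets lay apart were the glucose transporter gene Slc2a1 (-0.28 and -0.30), Mlx (-0.24 and -0.24) and the retinoic acid receptor gene Rarg (-0.078 and -0.32) on the lower side, and the protease gene St14, whose product Spint1 inhibits (0.24 and 0.36), on the higher side.

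**Figure D4:**
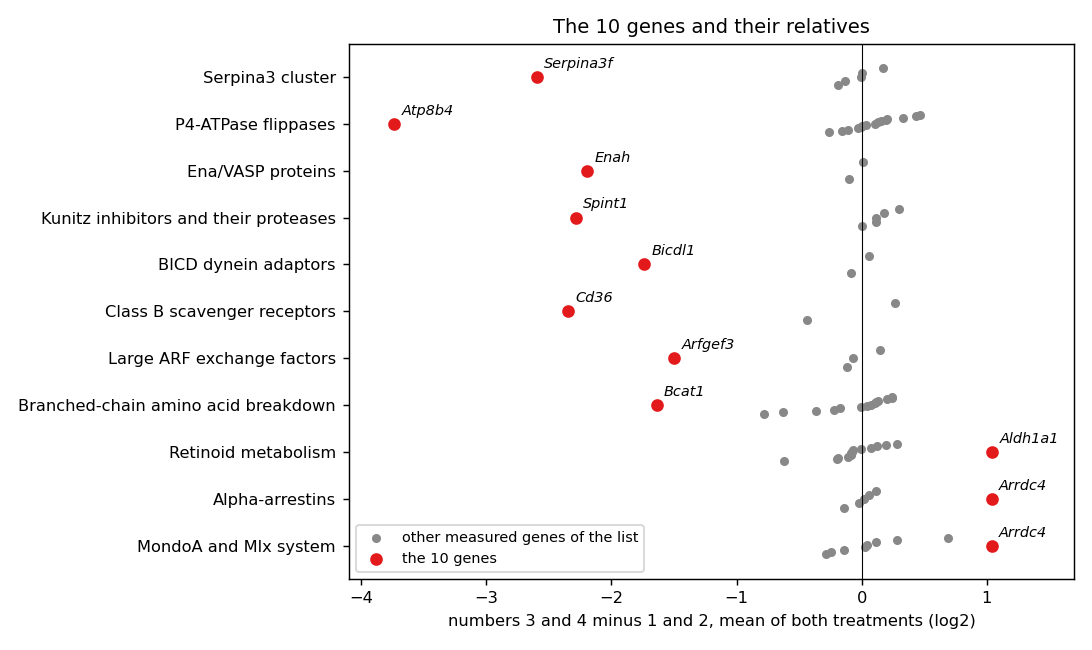
Mean of the vehicle and eltrombopag shift (numbers 3 and 4 minus numbers 1 and 2, log2 units, x axis) by gene list (y axis). Red points are the 10 genes, with Arrdc4 in 2 lists, and grey points the other measured genes of each list, of which 0 passed 2-fold in both treatments.

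Patterns over the arrays were compared by the root-mean-square difference between log2 values centred on each gene's own mean, over 8 arrays. The nearest gene to Serpina3f was Mthfd2 (0.23), followed by Chac1, a glutathione-degrading enzyme (0.28). Chac1 was also the nearest to Spint1 (0.30) and to Enah (0.18), whose next genes were Enah (0.32) and Mthfd2 (0.23). For Atp8b4 the nearest were Socs2 (0.61) and Serpina3f (0.63), and for Cd36 they were Slfn2 (0.37) and Serpina3f (0.40). Bicdl1 lay nearest to Cish, a cytokine signalling inhibitor (0.18), and to the alanine aminotransferase gene Gpt2 (0.21). Arfgef3 lay nearest to Sesn2, a stress-induced regulator of nutrient signalling (0.16), and to Cd274 (0.17). Bcat1 lay nearest to Cytip (0.28) and to asparagine synthetase, Asns (0.31). For the 2 genes that were higher, the nearest were Vipr1 (0.19) and Tm4sf1 (0.20) to Aldh1a1, and Pcdh7 (0.14) and Siglecf (0.14) to Arrdc4. The median distance to all genes was 0.56 for Arrdc4 and 1.90 for Atp8b4. As the shift dominates each profile, a small distance mainly says that the partner carried a shift of like size and sign.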

How the data were processed

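Sorted mouse stem cells were measured in 8 arrays, 4 with eltrombopag and 4 with vehicle, grouped and numbered by their titles. The authors deposited 1 log2 value for each probe set on each array. RMA, oligo and limma, with no version, are the tools listed in the submitters' processing notes. As RMA sets arrays to a common distribution, overall differences in RNA content are not in these values. A genome build for the probe sets was not given in the sources used here. Of 22206 probe sets, the platform annotation paired 19572 with 1 symbol and 0 with several, and 2634 are unnamed here. They gave 19505 genes, with the highest-mean probe set for the 55 genes that had several and no filter on dim genes. Signal over background is unknown, and the number of arrays limits the precision. As the labels name no animals, p-values refer to the spread between these arrays only. The titles call the arrays biological replicates, and how much of that spread is technical is not known.

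The 10 genes, the split of the numbers and the gene lists were chosen with earlier results of these data known. The test of eltrombopag against vehicle was limma 3.58.1 in R 4.3.3 (lmFit, eBayes, two-sided, group as the only term), with Benjamini-Hochberg adjustment over all genes and a threshold of 0.05, tested on simulated data. The differences between the numbers were not tested. Deviations from the group mean correlated at 0.232, 0.285, 0.18 and 0.134 for arrays of the same number, all over 0.1. Arrays of 1 number were therefore treated as pairs in the pair counts and the block fit. That rests on these data rather than on the labels. The test with group as the only term did not use the pairs, and values given without the block come from it. For numbers 3 and 4 the correlations do not single out the same number, since vehicle 4 with eltrombopag 3 gave 0.166 and vehicle 3 with eltrombopag 4 gave 0.167. Besides the 10 genes, the text names the 3 genes ranked highest in each direction, the 2 nearest in pattern to each of the 10, and listed relatives, Y-linked genes and markers, leaving out predicted genes and Rik clones. Upstream sequences came from RefSeq (GRCm38.p6) for 9 of the 10 genes, matched by symbol. Alternatives changed the pairing, normalization, filter, array weights, probe sets and the arrays kept.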

Additional observations from a re-analysis of the deposited data

Results flagged for a closer look

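In 36 groups of 4 arrays, 5 held an array far from the rest. Chance gives about 1 in 20, a share that does not apply to these chosen genes. The 10 genes were chosen for a split of 2 arrays against 2, which leaves no room for a single far array. Uty was named for its large shift. None of the 5 was in the 10 genes, and nothing is read from that. They were in Y-linked genes. Uty read 7.71 on vehicle array 3 (others 3.20 to 3.31) and 6.98 on eltrombopag array 3 (others 3.02 to 3.23). Kdm5d read 7.08 on vehicle array 3 (others 3.53 to 3.81) and 6.36 on eltrombopag array 3 (others 3.37 to 3.62). Eif2s3y read 3.57 on eltrombopag array 2 (others 3.93 to 3.996). Every Eif2s3y value lay below the lower quartile of an array, with 4.73 on vehicle array 3 and 3.996 on eltrombopag array 3.

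In 2 of the 10 genes both pairs of one set of numbers moved one way and both pairs of the other set the opposite way, as in 12.1% of all genes. The eltrombopag difference of Enah was 0.47 on numbers 1 and 2 and -0.27 on numbers 3 and 4, and that of Bicdl1 was 0.22 and -0.16. The difference between the sets was not tested for either gene.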

How the results depend on the processing

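In none of 18 alternatives did limma call a gene between eltrombopag and vehicle, and 304 to 945 genes had an unadjusted p under 0.05. The 304 were among the 9752 genes above the median mean, and with all genes kept the lowest count was 629. The fit with the replicate block called 0 genes (904 unadjusted) and changed no call. Over the 10 genes and these settings the sign of the difference turned in 45 of 178 values, at least once for each of the 10, and the smallest adjusted p was 0.984. With equal array medians Serpina3f was -0.0019. With array weights Spint1 was 0.22 and Arfgef3 0.0057. On numbers 1 and 2 alone Atp8b4 was -0.035, Spint1 0.20 and Arrdc4 0.029, on numbers 3 and 4 alone Enah was -0.27, Bicdl1 -0.16 and Arfgef3 0.00078, and without both arrays numbered 3 Arrdc4 was 0.037. For these values the cause was not tested. Each of the 10 changed sign at least once where a single array was dropped, and Cd36, Bcat1 and Aldh1a1 did so in no other setting. Dropping single arrays leaves unequal numbers of each set in the 2 groups by its construction, so the shift between the numbers enters the difference. It moved Atp8b4 between -0.46 and 1.02, Cd36 between -0.070 and 0.96, Serpina3f between -0.46 and 0.50, Spint1 between -0.56 and 0.45, Enah between -0.34 and 0.55, Bicdl1 between -0.32 and 0.46, Arfgef3 between -0.46 and 0.18, Bcat1 between -0.81 and 0.046, Aldh1a1 between -0.37 and 0.10 and Arrdc4 between -0.31 and 0.18. The count of 50 genes past 2-fold between the numbers in both treatments became 195 past 1.5-fold, and ran from 47 to 55 without 1 array. How far the dim values of Atp8b4 and Cd36 follow their transcripts is not known here.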
